A study of Mus musculus with 9 samples.

Results

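Reads of 9 genes best known from macrophages (Lyz2, C1qa, C1qb, Apoe, Trem2, Mmp12, Adgre1, Spp1 and Cd36) were followed through cells sorted as CD8+ T cells from mouse melanomas. The 9 genes were among the 2124 panel genes listed in both deposited matrices. They were chosen from values measured in these libraries: they were proposed with the difference between clones shared with the lymph node and other clones in view, so that difference is given below as a description and carries no test.

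The tumours were B16F10, a transplantable melanoma line, grown under the skin of 8-week-old female C57BL/6 mice and collected on day 14. One mouse had received antibody against CD4 (clone GK1.5), which depletes CD4+ cells, and one antibody against PD-L1 (clone 10F.9G2), an inhibitory ligand on tumour and myeloid cells; both were given intraperitoneally at 200 µg on days 5 and 9. The third mouse was untreated. Cells of the anti-CD4 mouse carried sample tags 5 and 6 in a cartridge of their own. The other mice shared a second cartridge under tags 1 and 2, and the labels leave unsaid which of these tags marks the untreated mouse, so these tumours are called tag 1 and tag 2. With 1 mouse per treatment, treatment, animal and cartridge cannot be told apart and no test between tumours was made. T cells from spleens of Pmel-1 mice, whose receptor is a transgene, were spiked in once the sort was done, with tags 7 to 9, and were found in the anti-CD4 cartridge.

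Tumour macrophages clear dying cells and debris, present antigen on class II molecules and take up lipid. C1qa and C1qb encode chains of the complement starter C1q, Lyz2 encodes lysozyme, and Adgre1 encodes the surface receptor F4/80. Trem2 is a lipid-sensing receptor, Apoe a lipid carrier and Cd36 a scavenger receptor for fatty acids. Mmp12 is an elastase that macrophages secrete. Spp1 encodes osteopontin, a secreted matrix protein that activated T cells can also make. The sort had a gate against such cells: it took cells that stained for the T cell receptor and CD8 and not for CD4 or for CD11b, B220, NK1.1 and Ter119. Leukocytes inside blood vessels, stained for 3 minutes before death, were also gated out, and the stated purity was over 95%.

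The cells fell into classes by whether a T cell receptor beta chain had been assembled for them. Those with a beta chain numbered 12304, 6412 and 11310 for the anti-CD4, tag 1 and tag 2 tumours, with medians of 21194, 17629.5 and 13932 reads per cell. Cells without one numbered 1311, 1667 and 2530, with medians of 19724, 13257 and 9686.5 reads. The spike-in gave 860 cells with a beta chain (median 11427 reads) and 30 without. The label of T cell was borne out by defining genes in most beta chain cells: of those with no read of the 9 genes, Trac was read in 99.8%, 96.2% and 94.0% and Cd8a in 96.9%, 77.0% and 75.01% in the same order. The matrices shared 397 cell barcodes, which is 2.67% of the barcodes of the first and 1.78% of the second. The values are sequencing reads and not collapsed molecules, and 1 captured transcript can give many reads.

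The genes lie on 6 chromosomes of GRCm38.p6. C1qa (chromosome 4, 136895916 to 136898844) and C1qb (4, 136880126 to 136886200) are neighbours. Lyz2 lies at 10:117277541-117282272, Apoe at 7:19696244-19701310, Trem2 at 17:48346401-48352276, Adgre1 at 17:57358581-57483529, Mmp12 at 9:7344397-7360461, Spp1 at 5:104435111-104441053 and Cd36 at 5:17781690-17888959, and all are protein coding. Reads were counted per panel gene, so their place within a gene is not known here. Lyz1, a close copy of Lyz2, was also in both matrices, and how reads were divided between these copies is not given in the sources used here. Of the 9 genes, 7 have promoter windows in the RefSeq table used here (250 bases before to 50 after the start). The windows of C1qb, a complement gene, and of Spp1, the member most often read alone in the anti-CD4 tumour, are shown 5′ to 3′ on the gene's strand (C1qb chr4:136886151-136886450, minus; Spp1 chr5:104434861-104435160, plus). Capitals mark GAGGAA, the core bound by PU.1, the ETS factor of myeloid cells, searched on both strands.
C1qb: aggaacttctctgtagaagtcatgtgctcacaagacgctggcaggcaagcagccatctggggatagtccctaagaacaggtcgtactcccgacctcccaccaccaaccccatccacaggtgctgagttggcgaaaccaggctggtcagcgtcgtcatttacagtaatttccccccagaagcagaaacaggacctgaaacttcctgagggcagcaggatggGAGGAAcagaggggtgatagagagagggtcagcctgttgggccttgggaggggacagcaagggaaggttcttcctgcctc
Spp1: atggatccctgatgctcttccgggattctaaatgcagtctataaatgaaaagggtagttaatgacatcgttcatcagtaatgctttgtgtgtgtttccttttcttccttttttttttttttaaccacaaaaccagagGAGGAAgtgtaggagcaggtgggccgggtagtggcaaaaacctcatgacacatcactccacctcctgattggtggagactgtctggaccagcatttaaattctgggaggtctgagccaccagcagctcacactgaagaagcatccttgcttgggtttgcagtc
Each window held 1 match. The motif was in 6 of the 11 windows of these genes, which belong to 5 of the 7, and in 28.3% of all 32851 windows in the table, so a match is common and is a description of the sequence only.

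Few beta chain cells had a read of any member. At least 1 of the 9 genes was read in 1633 cells of the anti-CD4 tumour (13.3%, exact Clopper-Pearson 95% interval 12.7 to 13.9%), in 381 of tag 1 (5.94%, 5.38 to 6.55%) and in 945 of tag 2 (8.36%, 7.85 to 8.88%). Thinning each cell to 4000 reads gave 9.41%, 4.04% and 6.35%. The 2 tags of the anti-CD4 mouse gave 13.2% and 13.4%. Intervals here cover counting error only; neither PCR copies of a transcript nor sister cells of a clone are independent observations.

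Lyz2 was the member read in most beta chain cells of the anti-CD4 tumour and Spp1 in those of the pool cartridge. Lyz2 was read in 635 cells of the anti-CD4 tumour (5.16%, 317872 reads), in 35 of tag 1 (0.546%, 1875 reads) and in 72 of tag 2 (0.637%, 31197 reads). C1qa was read in 212 (1.72%), 12 (0.187%) and 26 cells (0.230%) and C1qb in 342 (2.78%), 22 (0.343%) and 49 (0.433%). The lysozyme and complement genes were thus read in a larger share of cells in the anti-CD4 tumour than in either other tumour. Their intervals do not overlap, but these cover no spread between mice, and treatment, animal and cartridge cannot be told apart. Spike-in cells of the anti-CD4 cartridge, given below, had Lyz2 in 3.49% and C1qb in 1.74%. Adgre1 was read in 71 cells (0.577%), 11 (0.172%) and 9 (0.0796%). Of the lipid genes, Trem2 was read in 52 cells (0.423%), 4 (0.0624%) and 13 (0.115%), and Cd36 in 37 (0.301%), 15 (0.234%) and 20 (0.177%). The 3 intervals for Cd36 overlap. Apoe ran the other way, with 131 cells (1.06%) in the anti-CD4 tumour, 147 (2.29%) in tag 1 and 235 (2.08%) in tag 2. Mmp12 was read in 54 cells (0.439%), 10 (0.156%) and 17 (0.150%). Spp1 was read in 509 (4.14%), 177 (2.76%) and 571 cells (5.05%), so that its share was highest in the tag 2 tumour, whose cells were read least deeply.

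**Figure D1:**
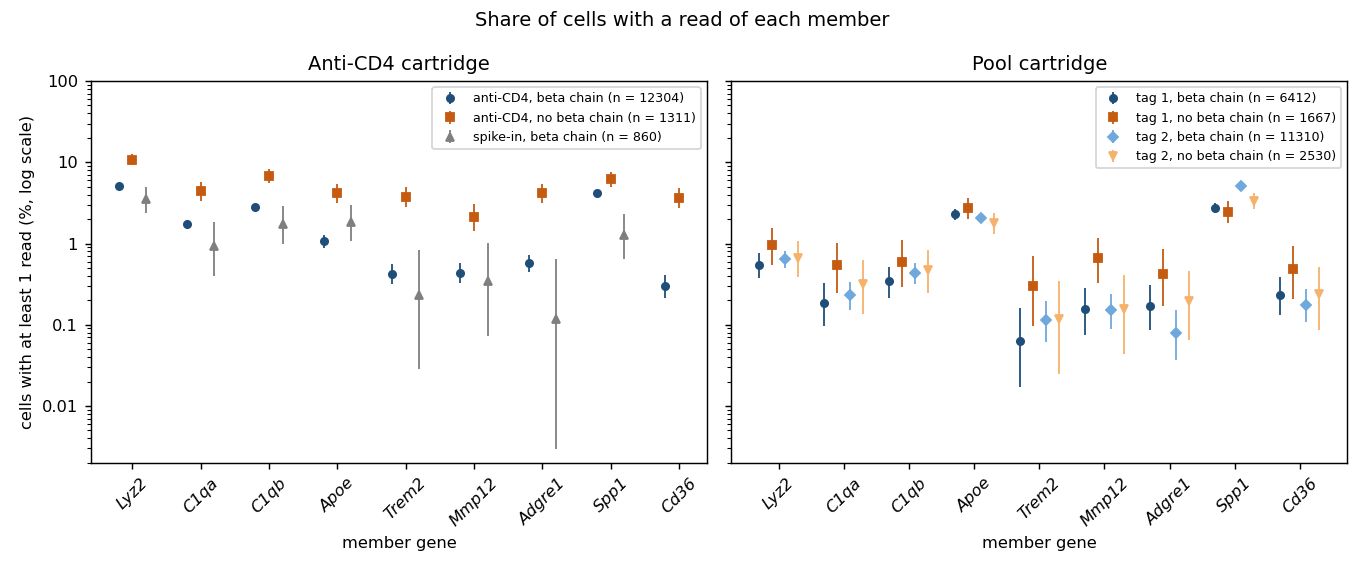
Share of cells with at least 1 read of each member (log scale), with exact 95% intervals, for cells with and without a beta chain and, in the anti-CD4 cartridge, for spike-in T cells. Cd36 has no spike-in point because 0 of 860 cells had a read; in the anti-CD4 tumour every member was read in a larger share of cells without a beta chain than of cells with one.

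The cells tagged as spleen T cells, read in the same cartridge as the anti-CD4 tumour, give a share for cells not sorted from a tumour. They were taken by tag and not limited to the Pmel-1 clone. Those with a beta chain and 0 members carried 41 different beta chains. The 6 with 2 members carried 4 and held 75.2% of the member reads of the class. Whether all were Pmel-1 cells was not tested, so the shares below may not be a clean background. At least 1 member was read in 74 of 860 spike-in cells with a beta chain (8.60%, 6.82 to 10.7%; thinned 6.40%). Lyz2 was read in 30 of them (3.49%, 2.37 to 4.94%; thinned 2.67% against 3.6% in the tumour cells), and its interval overlaps that of the tumour cells (4.78 to 5.57%). C1qb was read in 15 spike-in cells (1.74%), C1qa in 8 (0.930%), Mmp12 in 3 (0.349%) and Trem2 in 2 (0.233%), each with an interval that overlaps the tumour value. Apoe was read in 16 (1.86%, 1.07 to 3.00%), and the 1.06% of anti-CD4 tumour cells (0.891 to 1.26%) is no higher. Apoe reads were nevertheless uneven among tumour cells, where 34 of the 131 cells also had at least 2 other members and held 74.8% of its reads. Adgre1 was read in 1 spike-in cell (0.116%), with an interval up to 0.646% that reaches the tumour share. Spp1 stood apart from the spike-in, with 11 cells (1.28%, 0.640 to 2.28%) against 4.14% (3.79 to 4.50%) in tumour cells. Cd36 was read in 0 of 860 cells, which allows a share of up to 0.349% when the limit is set at 3 cells of the total (exact 95% upper bound 0.428%). The pool cartridge held no such cells, so its shares have no background of this kind.

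Most reads of most members sat in a few cells. In the anti-CD4 tumour the 10 beta chain cells with the most reads of a gene held 69.8% of all Lyz2 reads, 87.8% of C1qa, 78.7% of C1qb, 84.3% of Trem2, 69.4% of Adgre1, 83.6% of Cd36, 87.3% of Apoe and 97.9% of Mmp12. For Spp1 they held 45.1%. The median over the 9 members was 83.6%, beside 11.6% over the 651 genes read in at least 20 beta chain cells of every tumour, 34.4% over those of them read in under 5% of cells, and 0.511% over 10 T cell genes. In tag 2 the same median was 99.1%, beside 27.2% for rarely read genes, and in tag 1 it was 96.4%, beside 37.9%. Thinned to 4000 reads the medians were 58.8%, 100% and 98.7% for the anti-CD4, tag 1 and tag 2 tumours, beside 47.6%, 58.0% and 40.6% for genes read in under 5% of cells. A gene read in 10 cells or fewer gives 100% by construction, as Trem2 and Mmp12 did in tag 1. The members did not have to meet the cut of 20 cells set for the other genes. In tag 1 the members were read in a median of 0.234% of cells, beside 1.09% for the rarely read genes. In tag 2 these values were 0.230% and 1.07%. A gene read in fewer cells tends to a higher value, so in the pool cartridge this comparison cannot separate concentration from rarity.

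At least 50% of the reads of a gene were held by 4 to 6 cells for 7 members of the anti-CD4 tumour, by 1 cell for Mmp12 and by 13 for Spp1. In tag 2 a single cell held at least 50% of the reads of 7 members, and the fullest cell of each gene held 86.3% of its Lyz2 reads, 76.4% of C1qa, 68.3% of C1qb, 73.6% of Trem2, 83.2% of Adgre1, 74.8% of Cd36 and 92.7% of Mmp12. Apoe and Spp1 were the 2 genes of that tumour whose reads were spread wider, with 4 and 36 cells for 50%. In tag 1, Apoe and Spp1 each took 9 cells and the other 7 members 1 to 4. Thinned to 4000 reads, the deepest cells weighed less. In tag 2 a single cell then held at least 50% for Adgre1 and Mmp12, the fullest Lyz2 cell held 28% and Apoe took 20 cells. Among anti-CD4 cells Lyz2 took 14 in place of 6, C1qb 13 in place of 5 and Spp1 25 in place of 13.

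**Figure D2:**
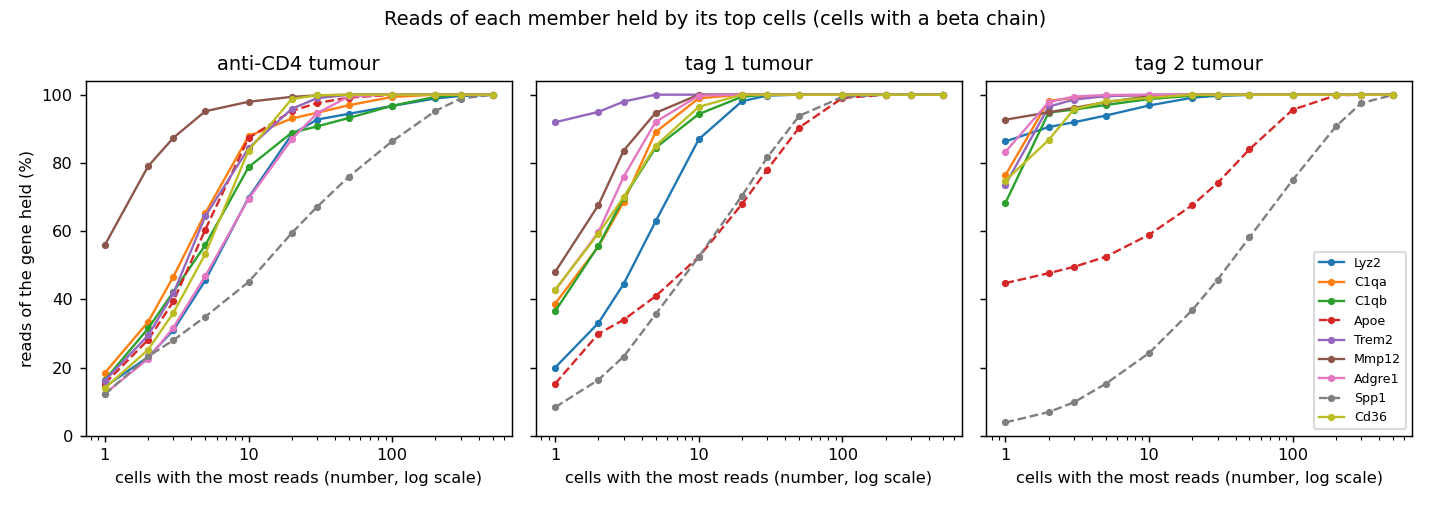
Percent of a gene's reads held by its fullest cells, against the number of those cells (log scale), for beta chain cells of each tumour. Solid lines climb within a few cells, while the dashed line of Spp1 climbs slowest in the anti-CD4 and tag 2 tumours, where its 10 fullest cells held 45.1% and 24.3% of its reads.

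In the anti-CD4 tumour there was, beside the few full cells, a diffuse layer of cells, many of them with small numbers of reads. Of the 635 anti-CD4 cells with Lyz2, 472 had no other member (74.3%). They held a median of 7 Lyz2 reads, and 115 of them had 1 read while 52 had at least 100. Together they held 4.92% of the Lyz2 reads. The 71 cells that also had at least 2 other members held a median of 110 reads and 92.7% of the total. C1qb showed the same split, with 218 of 342 cells alone at a median of 5 reads and 7.53% of its reads. Trem2 and Adgre1 were less often alone, in 13 of 52 and 28 of 71 cells. In tag 1, cells with no other member held more of the reads: 47.8% for Lyz2, 60.2% for C1qa and 75.4% for Mmp12, in 22, 7 and 6 cells. In tag 2 they held 7.81%, 1.28% and 7.29%. Such cells were frequent there too: Lyz2 was alone in 56 of 72 cells with a median of 5 reads, and C1qb in 41 of 49 with a median of 1. Spp1 of the anti-CD4 tumour differed from Lyz2 and C1qb: 435 of its 509 cells had no other member, their median was 41 reads, and they held 61.4% of its reads. In tag 2, 536 of 571 Spp1 cells were alone with a median of 53 reads and 91.8% of the reads, and 209 of them had at least 100. Apoe differed between tumours: it was alone in 80 of 131 anti-CD4 cells with 5.39% of its reads, in 135 of 147 cells of tag 1 with 59.97% and in 209 of 235 cells of tag 2 with 46.5%.

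Reads of different members fell in the same cells more often than their shares would give if unrelated. Of the 36 pairs of members, 36 in the anti-CD4 tumour, 31 in tag 1 and 35 in tag 2 had more shared cells than that number, with median ratios of 10.2, 36.1 and 17.5. In tag 1 these 31 were also the only pairs with any shared cell, and in tag 2 all 36 had at least 1. Where under 1 cell would be given, as 0.0069 for Trem2 and Adgre1 in tag 1, 1 shared cell puts the ratio above 1. In the anti-CD4 tumour C1qa and C1qb were read together in 65 cells where 5.89 would be given (ratio 11.03), Lyz2 and C1qb in 84 where 17.7 would be (4.76), and Trem2 and Adgre1 in 20 where 0.300 would be (66.7). Lyz2 was read in 32 of the 52 Trem2 cells and 36 of the 71 Adgre1 cells. In the pool cartridge the same pairs rested on few cells: C1qa and C1qb shared 5 cells in tag 1 and 6 in tag 2, and Trem2 and Adgre1 shared 2 and 3. Pairs with Spp1 had lower ratios, with medians of 3.16, 8.15 and 2.11, beside 15.6, 76.3 and 51.2 over the 21 pairs without Spp1 or Apoe. Lyz2 and Spp1 shared 45 anti-CD4 cells where 26.3 would be given (1.71), and C1qb and Spp1 in tag 2 shared 2 where a ratio of 0.808 results. Cells read more deeply have more reads of every gene, which alone raises such ratios; with all cells thinned to 4000 reads, 36, 23 and 34 pairs remained above 1.

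**Figure D3:**
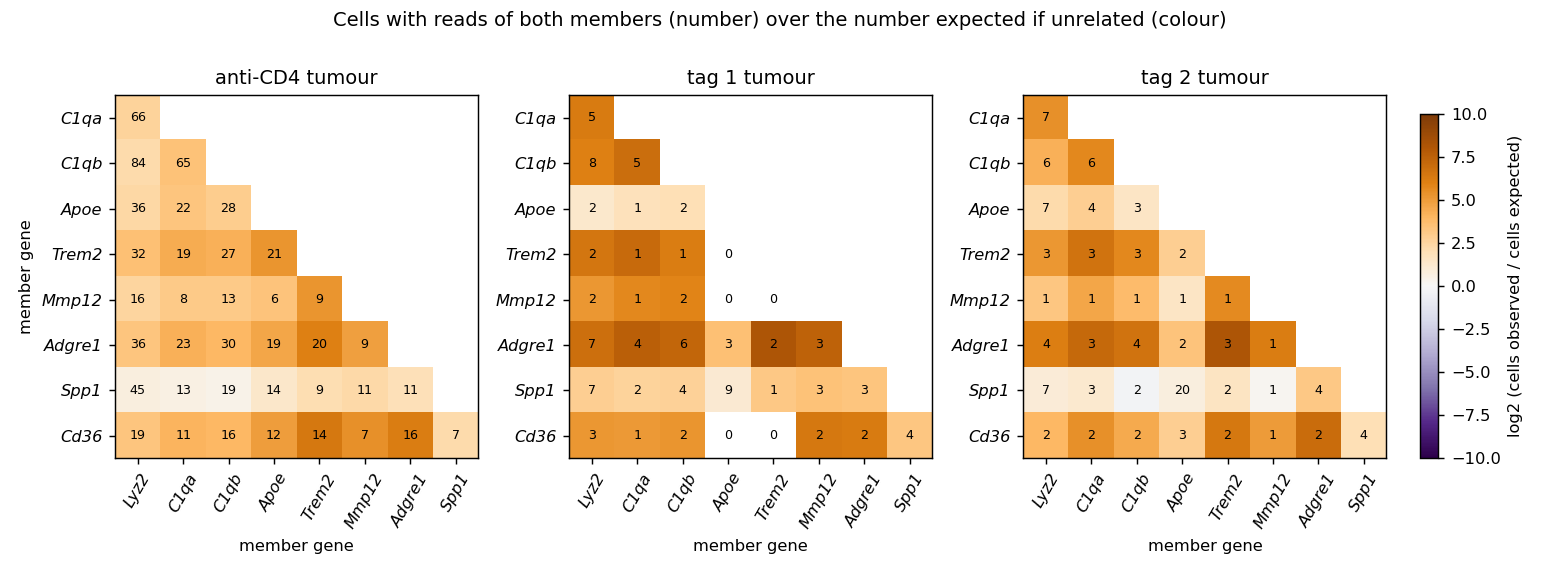
Number of beta chain cells with reads of both members (printed) and, as colour, log2 of that number over the number expected if the 2 shares were unrelated; pairs with 0 shared cells are white. In the anti-CD4 tumour C1qa and C1qb shared 65 cells and Trem2 and Adgre1 20, and pairs with Spp1 had median ratios of 3.16, 8.15 and 2.11 from left to right.

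Cells with several members were few, and they held a large part of the member reads in the anti-CD4 and tag 2 tumours but not in tag 1. At least 3 members were read in 80 beta chain cells of the anti-CD4 tumour (0.650%, 0.516 to 0.809%), in 9 of tag 1 (0.140%, 0.0642 to 0.266%) and in 7 of tag 2 (0.0619%, 0.0249 to 0.127%). They held 77.6%, 5.64% and 43.0% of all member reads of those classes, while in tag 1 the cells with 1 member held 67.9%. In tag 2, 2 cells held 42.7%. The 80 anti-CD4 cells were divided between tags 5 and 6 as 41 and 39 and belonged to 38 clones, of which the most frequent gave 15 cells. In the spike-in, 2 of 860 cells with a beta chain had at least 3 members (0.233%, 0.0282 to 0.838%).

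The 80 anti-CD4 cells were split by the share of reads that the members took, which uses the members and therefore carries no test. In 45 of them the members made up under 1% of the reads. These 45 resembled cells without members in T cell transcripts: the 10 T cell genes were at least 5% of the reads in all 45, with a median of 11.1% beside 12.02% in cells with 0 members, and the beta chain had a median of 2580 reads beside 2797. Trac was read in 45 of 45 of them, Cd8a in 43 and Lck, the kinase of T cell receptor signalling, in 44. The class II gene H2-Aa was nevertheless read in 46.7% of them beside 2.84% of cells with 0 members, and Fcer1g, a signalling chain of Fc receptors, in 35.6% beside 6.55%.

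In 11 cells the members made up 1 to 5% of the reads. T cell genes were at least 5% of the reads in 9 of these 11, with a median of 10.6%, the beta chain had a median of 3776 reads and an alpha chain was found in 10. The class II genes had a median of 1.57% of their reads.

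In the other 24 cells the members made up at least 5% of the reads, with a median of 14.7% and a highest value of 30.5%. Their median was 104082 reads per cell, against 20587 in cells with 0 members. T cell genes were under 1% of the reads in 16 of the 24 and at least 5% in 1, with a median of 0.0827%. The beta chain that had placed them in this class had a median of 202.5 reads, and in 12 of 24 it had fewer than 200, beside 3.87% of cells with 0 members; an alpha chain was found in 12 of 24 beside 94.2%. The other macrophage and monocyte genes (17 of 37 listed were in both matrices) made up 14.8% of their reads beside 1.05%, and the class II genes (4 of 5) 14.5% beside 0.0146%. Cd74, the class II chaperone, was read in 23 of the 24 and Fcer1g in 22, and Lgals3, or galectin-3, in all 24. Clec10a, a lectin of dendritic cells and macrophages, was read in 14 of them, and S100a8, a neutrophil and monocyte gene, in 6. The Cd4 gene was read in 0 and Flt3, which marks dendritic cell lineages, in 0 of the 24, too few cells to bound a low share. Only 3 of 10 listed dendritic cell genes (Flt3, Clec10a and Itgax) and 2 of 7 neutrophil genes were in both matrices. The single-gene counts of this paragraph have no share in cells with 0 members beside them, so they name no cell type. Whether such a barcode held 1 cell or several was not tested.

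The pool cartridge had few such cells. In tag 1 none of the 9 cells had members at 5% of reads or more, and the T cell genes took 11.8% of their summed reads beside 10.3% in cells with 0 members. In tag 2, 2 of the 7 did, at 11.9% and 19.1%; T cell genes took 1.49% of the reads of these 2 and the other macrophage and monocyte genes 15.2%, while class II genes took 0.246%.

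**Figure D4:**
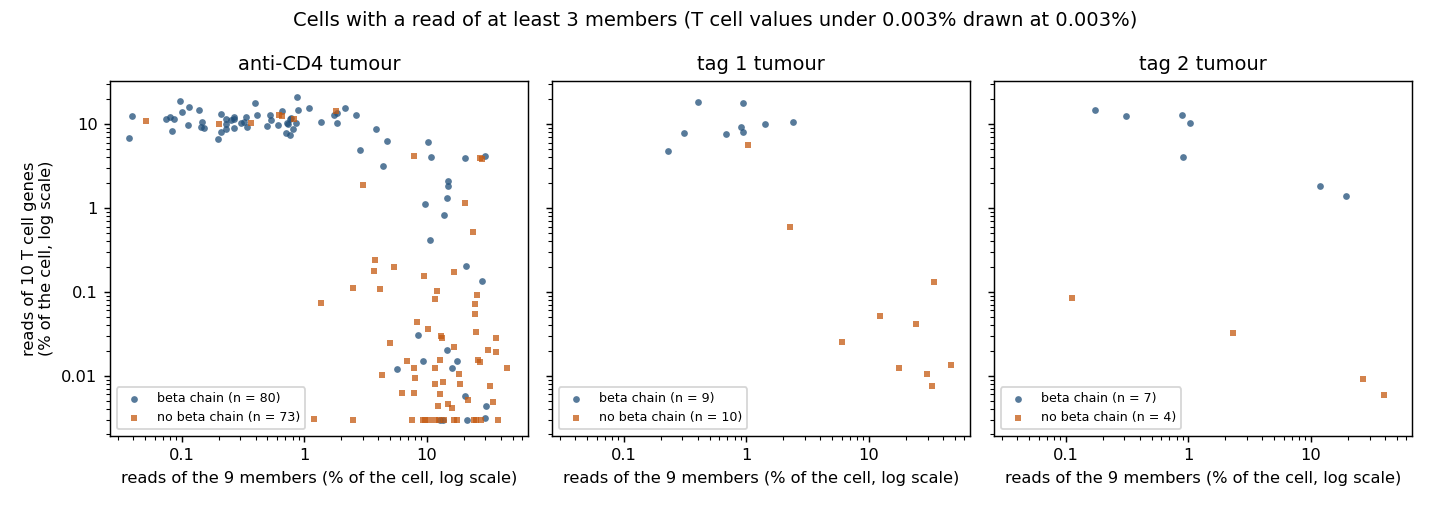
Each point is a cell with a read of at least 3 members: percent of its reads from the 9 members against percent from 10 T cell genes (both log scale). All 45 anti-CD4 beta chain cells with members under 1% of reads sit at 5% T cell reads or more, and of the 24 anti-CD4 beta chain cells with members at 5% or more, 16 sit below 1%, among the cells without a beta chain.

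The share of cells with a member was larger without a beta chain than with one in the anti-CD4 tumour, about equal in tag 1 and smaller in tag 2, and this was not tested. At least 1 member was read in 239 of 1311 such cells of the anti-CD4 tumour (18.2%), 100 of 1667 of tag 1 (6.00%) and 159 of 2530 of tag 2 (6.28%), against 13.3%, 5.94% and 8.36% with a beta chain. At least 3 were read in 73 (5.57%), 10 (0.60%) and 4 cells (0.158%), and these held 98.6%, 96.8% and 84.5% of the member reads of their class. T cell genes took 0.681%, 0.0988% and 0.0290% of the reads of these cells and the other macrophage and monocyte genes 15.2%, 25.2% and 21.5%. In RPM, the reads of a gene per 1000000 reads of the summed cells, Lyz2 stood at 19828, 4002 and 1668 in cells without a beta chain and at 1094, 14.2 and 135 in cells with one. Apoe stood at 2573, 612 and 578 against 137, 88.8 and 90.9, and Adgre1 at 635, 214 and 236 against 45.8, 2.93 and 38.3. For each of these genes the value without a beta chain was above the value with one in every mouse.

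The difference was tested over all genes on the sums of the 3 mice, with the mouse as a block, by edgeR's quasi-likelihood test. Of 1340 genes tested, 2 passed a Benjamini-Hochberg adjusted p of 0.05 (0.149%), both higher in cells without a beta chain, and 130 had an unadjusted p under that value. They were Il1b, a myeloid cytokine (log2 difference 4.64, adjusted p = 0.0480), and the interferon-induced Ifi204 (3.30, adjusted p = 0.0480), named after their values were seen. None of the 9 members passed. All 9 fitted differences were positive, with a median of 4.4 beside −0.08 over all genes tested. The mean of the 3 per-mouse log2 differences was 5.31 ± 2.46 for Lyz2 (SD, n = 3 mice; edgeR adjusted p = 0.271), 3.23 ± 0.87 for Apoe (adjusted p = 0.169) and 4.20 ± 1.82 for Adgre1 (adjusted p = 0.243). C1qa had 5.24 ± 3.94, C1qb 4.50 ± 3.26, Trem2 4.33 ± 4.21 and Cd36 5.10 ± 3.37, all positive in 3 of 3 mice, and the edgeR adjusted p ranged from 0.507 to 0.651 for these 4. In tag 2 the fullest cell without a beta chain held 20267 of 20290 reads of C1qa and 8154 of 8801 of Adgre1. The fullest held 5388 of 5449 for C1qb and 730 of 739 for Trem2. After thinning, tag 2 shares without and with a beta chain were 0.079% and 0.159% for C1qa and 0.040% and 0.062% for Trem2. They were 0.237% and 0.230% for C1qb, 0.237% and 0.088% for Cd36 and 0.158% and 0.053% for Adgre1. Mmp12 (3.70 ± 6.91) and Spp1 (1.86 ± 2.89) were positive in 2 of 3 mice. The mice differed widely: for Lyz2 the values were 4.18, 8.14 and 3.62, and for C1qa 3.98, 9.66 and 2.08, highest in tag 1 for both. DESeq2 called 82 of 1588 genes and 7 of the 9 members, all but Mmp12 and Spp1. Without the cells that had at least 3 members, 5 of the 9 fitted differences were positive and their median was 0.05; this choice of cells too lowers member reads by construction.

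Cells marked as doublets in the deposited column of sample tags did not stand apart with a beta chain. At least 3 members were read in 0 of 218 such doublets of the anti-CD4 cartridge, which by the same limit allows up to 1.38% (exact upper bound 1.68%), and in 0 of 331 of the pool cartridge, up to 0.906% (1.11%). Without a beta chain there were 3 of 74 and 1 of 77. The members made up 16.6% to 21.9% of the reads of these 3 and 8.26% of the reads of the 1. Of 74 cells with no tag, 22 had a member (29.7%) and 1 had at least 3. Doublets other than these were not searched for.

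Clones shared with the node of the same mouse were then set against other clones. The anti-CD4 node was matched by label; tags 1 and 2 were matched to the node that lists most of their cells' clones (57.9% and 28.8% of cells), so for these the matching rests on the sharing itself. The node titled anti-CD4 also listed the clones of 24.2% of tag 1 cells. In RPM of the summed cells, Lyz2 stood at 1247, 23.4 and 255 in shared clones and at 89.6, 1.36 and 27.4 in other clones of the anti-CD4, tag 1 and tag 2 tumours, a mean log2 difference of 3.71 ± 0.45 (SD, n = 3 mice). C1qa was likewise above in all mice, at 470, 2.41 and 208 against 23.6, 0.109 and 56.9 (3.55 ± 1.46). In tag 2 the fullest cell of each gene made up most of the shared value, with 26921 of 27882 Lyz2 reads and 22649 of 22766 C1qa reads. Without each gene's 10 fullest cells the tag 2 difference was 0.62 for Lyz2 and 0.37 for C1qa, the latter from 14 against 12 reads. C1qb (1.94 ± 1.67) and Cd36 (4.0 ± 2.28) were positive in 3 of 3 mice. For Cd36 the other clones had 7 reads in 1 anti-CD4 cell and 7 reads in 5 tag 1 cells. Without each gene's 10 fullest cells the tag 2 difference was 1.49 for C1qb and −0.34 for Cd36, the latter from 5 against 7 reads. Trem2 was positive in 3 of 3 mice too. In tag 1, though, it had 96 reads in 3 shared cells, 91 of them in 1 cell, and 3 reads in 1 other cell. The log2 difference of Trem2 there was 4.52. Its counting interval of 2.93 to 6.83 takes reads as independent and does not measure the spread between cells. Apoe (3.11, −1.23 and 0.70), Adgre1 (3.08, −0.38 and 2.50), Mmp12 (5.70, −2.99 and −4.86) and Spp1 (−0.60, −0.68 and 1.65) had both signs.

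The cells with at least 3 members were few in both kinds of clone. In the anti-CD4 tumour 75 of 10410 cells of shared clones (0.720%) and 5 of 1894 of other clones (0.264%) had at least 3 members. In tag 1 these were 7 of 3713 and 2 of 2699, and in tag 2 they were 2 of 3257 and 5 of 8053. With these cells left out, the Lyz2 differences were 0.42, 3.18 and −0.89, those of C1qa 0.98, 3.71 and −1.05 and those of C1qb 0.73, −1.90 and −0.40, and 0 members were positive in all 3 mice; since these cells were picked by reads of the same members, leaving them out lowers member reads by construction. By the share of cells with a read, the classes were closer: Lyz2 was read in 5.39% of shared and 3.91% of other anti-CD4 cells, 0.646% and 0.408% in tag 1, and 0.768% and 0.584% in tag 2. Cells of shared clones were read more deeply, with medians of 21817.5 against 16619, 18036 against 16661 and 30572 against 11215 reads, and thinned to 4000 reads the Lyz2 shares were 3.73% against 2.90%, 0.485% against 0.185% and 0.491% against 0.410%. The log2 differences of Lyz2 after thinning were 1.43, 3.92 and 0.94 (mean 2.10 ± 1.60, SD, n = 3 mice), smaller than before thinning in all 3 mice. Spp1 in tag 2 changed little without the many-member cells (1.62 against 1.65): it was read in 11.2% of shared and 2.56% of other cells there. With clones of at least 2 cells, however, its tag 2 difference was 0.20, with Spp1 read in 11.9% of shared and 8.86% of other cells.

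**Figure D5:**
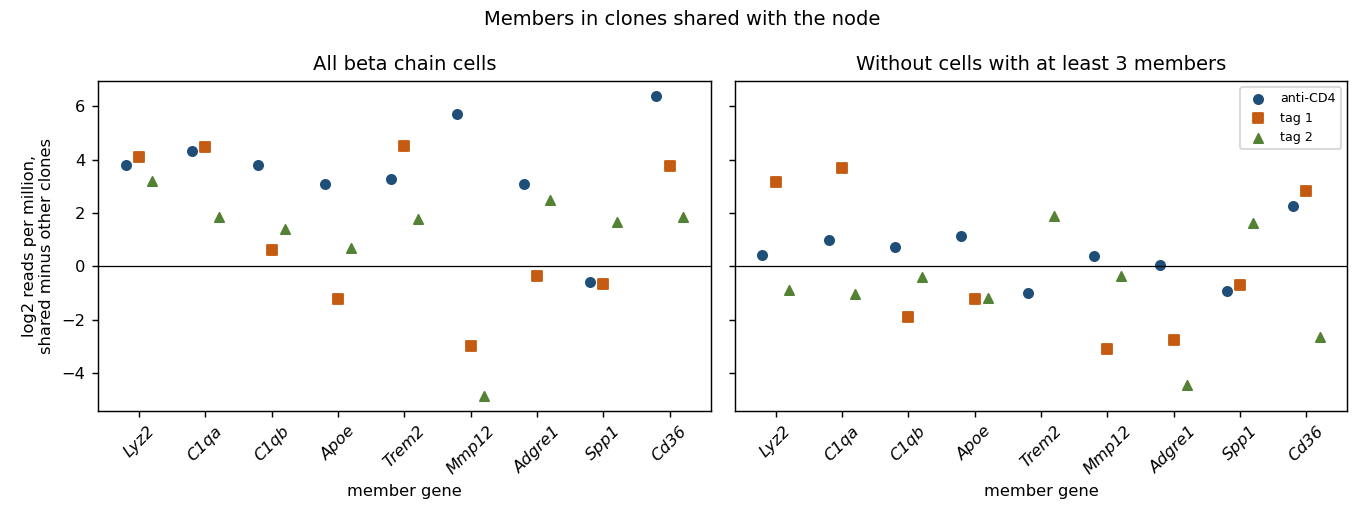
Log2 difference in RPM between clones shared with the node and other clones, by member and mouse, with all beta chain cells (left) and without cells that had at least 3 members (right). Lyz2 lies between 3.22 and 4.11 on the left and between −0.89 and 3.18 on the right; Trem2 of tag 1 has no value on the right because both classes had 3 reads or fewer.

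The genes whose reads followed the members most closely across beta chain cells split the list the same way. Pearson's r of log2(reads per 10000 + 1) was averaged over the 3 tumours for 651 genes, and the 3 highest outside the list are named for each member; the cells share library and depth, and the values are weak and descriptive. Cd14, a monocyte and macrophage receptor for bacterial lipid, was among the 3 for 7 of the members, with a mean r of 0.283 for Adgre1, 0.252 for Trem2, 0.245 for Cd36, 0.222 for Lyz2, 0.213 for C1qb, 0.195 for C1qa and 0.152 for Mmp12. Cd63, a protein of late endosomes, was among them for 7, and Ccl6, a myeloid chemokine, for 4. Cd14 values ran from 0.244 to 0.485 for the anti-CD4 tumour, 0.026 to 0.166 for tag 1 and 0.092 to 0.266 for tag 2. Cd63 values ran from 0.243 to 0.399, −0.002 to 0.119 and 0.094 to 0.297 in the same order. Apoe had Cd63 (0.20), H2-Aa (0.124) and H2-Eb1 (0.119). Its r with H2-Aa was 0.290 in the anti-CD4 tumour, 0.044 in tag 1 and 0.037 in tag 2. For Spp1 the 3 genes were Irf8 (0.205), a factor of myeloid and activated lymphoid cells, Tnfrsf9 (0.181), the costimulatory receptor 4-1BB of activated T cells, and Ube2c (0.161), an enzyme of the cell division cycle; none of these 3 was among those of another member. In tag 2 their r with Spp1 was 0.293, 0.278 and 0.203. It was lower in the anti-CD4 tumour (0.150, 0.114 and 0.128) and in tag 1 (0.170, 0.151 and 0.150).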

How the data were processed

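GRCm38, cutadapt (3.2, 3.4), Bowtie2 (2.4.2) and R (3.6.3) are named in the submitters' processing notes. The authors deposited raw counts of reads per panel gene and cell (lowest cell total 4360 over the genes used) and, per the file headers, estimated counts for each receptor chain. The matrices list 2525 and 4636 genes; the 2124 in both hold 99.998% and 99.98% of reads. Cells of the Pmel-1 clone under tumour tags (10) were left out. A clone was a beta chain V gene, CDR3 nucleotide sequence and J gene, and was shared if listed in the mouse's node, where the lowest listed count was 10.

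Counts were summed per mouse and class and tested with edgeR 4.0.16 in R 4.3.3 after TMM scaling, with the mouse as block and genes kept by filterByExpr (minimum count 10); the script was checked on simulated data; DESeq2 1.42.0 was an alternative. In the shared-clone description a class at 0 reads was set to 3. Descriptions were made in Python 3.11.15 (scipy 1.17.1, pandas 2.3.3, numpy 2.4.6, matplotlib 3.10.9). Named genes were the 9 members, for each the 3 genes of highest mean r, and at most the 4 most read genes of each marker list. The members, lists and tests were chosen with earlier results of these data known.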

Additional observations from a re-analysis of the deposited data

Results flagged for a closer look

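The following differences between mice were not tested, as each treatment had 1 mouse. For cells without a beta chain minus cells with one, Mmp12 was at −3.53 on the log2 scale in tag 2 and positive in the other 2 mice; Spp1 was at −0.94 in tag 2 and positive in the others. For shared minus other clones, Apoe was at −1.23 and Adgre1 at −0.38 in tag 1 and positive elsewhere, Mmp12 was at 5.70 in the anti-CD4 mouse and negative elsewhere, and Spp1 was at 1.65 in tag 2 and negative elsewhere.

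Some further macrophage genes were listed in only 1 of the matrices and entered no comparison above. In the anti-CD4 cartridge, Arg1, the arginase of macrophages, was read in 6 of 14881 cells, and all 6 were among the 162 cells with at least 3 members. Ctss was read in 6 cells there, 2 of them among those 162, and Cybb in 5, with 0 among them. In the pool cartridge Cd163 was read in 9 cells and Cd68 in 7 of 22327, and for each gene 2 were among the 31 cells with at least 3 members.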

How the results depend on the processing

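For cells without against with a beta chain, 0 members and 2 genes were called by edgeR. DESeq2 called 7 members and 82 genes, no low-count filter 1 and 13, and thinning to 4000 reads 3 and 18. Without the mouse as a replicate block 0 genes were called, and without cells of at least 3 members 1 gene, Thbs1. Leaving out 1 mouse gave 0 to 1 members and 0 to 11 genes; tag 1 (replicate 2) decides the upper values, 1 member (Lyz2, adjusted p = 0.0428) and 11 genes, and without the anti-CD4 or tag 2 mouse 0 genes passed. Without cells of at least 3 members the median of the 9 members was 0.055, and C1qa (−1.53), Trem2 (−1.33), Mmp12 (−0.11) and Spp1 (−0.74) changed sign. The number of members above in shared clones in every mouse was 5, against 0 without those cells. It was 2 without each gene's 10 fullest cells, where 5 members had too few reads in 1 mouse or more for a value. After thinning it was 5, with the same members, though the Lyz2 mean went from 3.71 ± 0.45 to 2.10 ± 1.60 (SD, n = 3 mice). With clones of at least 2 cells it was also 5, but with other members. There C1qb was at −0.18 in tag 2, and Apoe was positive in every mouse (3.23, 0.14 and 1.64). In that setting Trem2 in tag 1 and Cd36 in the anti-CD4 mouse are bounds, as 1 class had 0 reads. Without the many-member cells C1qb had a mean of −0.52.

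The share of cells with any member was 8.74%, 3.51% and 5.72% at 5 reads or more, 7.44%, 2.90% and 5.04% at 10 reads or more, and 9.41%, 4.04% and 6.35% after thinning (anti-CD4, tag 1, tag 2). At least 2 members were read in 1.86%, 0.437% and 0.407% of cells; in the anti-CD4 tumour at least 4 were read in 0.333%, at least 3 with 5 reads each in 0.455%, and at least 3 after thinning in 0.439%. The fullest 1% of anti-CD4 cells held a median of 100% of reads after thinning, as the fullest 5% did without it (100%); these cells outnumber those with a read of most members, which fixes that value by construction. Without cells of at least 3 members, 20, 8 and 10 pairs stayed above 1; leaving cells out by their number of members lowers this, and the member differences above, by construction. Reads are not molecules, so a single transcript and a PCR jackpot look alike, and shares in the pool cartridge rest on few cells.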
